A study of Mus musculus with 9 samples.

Results

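The genes described here encode the enzymes that build heme and the mitochondrial carriers that feed the pathway: Alas2, Alad, Uros, Urod, Cpox, Ppox, Fech, Slc25a38 and Slc25a37. They were chosen by name from the deposited gene table, which lists 23285 genes, and all 9 were found, each with 1 entry and a completed test in all 3 comparisons. RNA was sequenced from immature erythroid cells of the bone marrow of C57BL/6 mice, in 9 libraries. FFa, the control group, held 3 libraries of CD71(hi)TER119+ cells from TRIM28(flox/flox) mice, which carry the floxed gene without Cre. KOa held 3 libraries of modestly deleted CD71(hi)TER119+ cells from TRIM28(flox/flox):Mx1Cre mice, and KOb held 3 libraries of severely deleted CD71(hi)TER119- cells of the same genotype. All groups carry the floxed allele. The Mx1 promoter that drives Cre is switched on by interferon, here through 5 injections of poly(I:C), and it acts in many interferon-responsive cells, not in erythroid cells alone. Cells were taken 2 weeks later, and the series description puts the undeleted share of Trim28 at 5 to 8% in KOa but at 1 to 4% in KOb. Injection of the control mice, animal ages and the number of mice behind each group were not given in the sources used here. Cre, injection and deletion therefore cannot be told apart, in KOb the sort gate differs as well, and the p-values may measure only technical spread.

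Heme synthesis starts and ends in mitochondria. Alas2 joins glycine, which the carrier Slc25a38 is known to bring in, with succinyl-CoA. Alad, Uros and Urod act later, in the cytosol, and Cpox, Ppox and Fech complete the ring in mitochondria, where Fech inserts iron that Slc25a37 (mitoferrin-1) imports. In erythroblasts these genes are strongly expressed to supply hemoglobin, and GATA1 is a known activator of several of them.

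The promoters of Alas2 and Cpox are shown first because these genes gave the lowest and the highest ratio of the 9 genes in both mutant groups. RefSeq windows (GRCm38.p6, the assembly also called mm10) were matched by symbol for 7 of the 9 genes. Each sequence is the 250 bases before the annotated start, 5′ to 3′ on the plus strand, on which both genes lie. Capitals mark TTATC, the reverse complement of the core GATAA of GATA factor sites. The first is chrX:150547167-150547416 and the second chr16:58669958-58670207.
Alas2: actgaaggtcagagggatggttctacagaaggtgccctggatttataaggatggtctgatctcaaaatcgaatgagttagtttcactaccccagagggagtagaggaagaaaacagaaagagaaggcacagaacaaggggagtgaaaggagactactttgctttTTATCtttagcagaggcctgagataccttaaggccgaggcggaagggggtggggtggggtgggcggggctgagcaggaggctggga
Cpox: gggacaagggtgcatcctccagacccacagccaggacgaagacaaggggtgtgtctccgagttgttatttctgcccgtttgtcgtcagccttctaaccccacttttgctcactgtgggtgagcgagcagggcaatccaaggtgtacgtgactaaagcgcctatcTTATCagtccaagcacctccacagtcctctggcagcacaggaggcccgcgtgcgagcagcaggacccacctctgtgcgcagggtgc

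In both windows 1 match to GATAA on either strand was found, and in both it begins 86 bases before the start. GATAA was present in 22.5% of the 32536 different windows of this length in the table. CACCC, the core bound by KLF1, was matched on either strand 3 times in the Alas2 window and 4 times in the Cpox window, and 52.1% of all windows hold it. The motifs were chosen after the sequences had been seen, and a match is a description of letters only. Among the other matched genes, GATAA was found in a window of Uros, and CACCC in a window of Alad and in that of Slc25a38. The windows of Urod and Ppox held neither. Whether these letters bear on the values given below was not tested.

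The targeted gene was lower in both mutants, although the place of the floxed exons is unknown here, with 26.0 FPKM of Trim28 in the control but 6.64 and 4.76 FPKM in KOa and KOb. FPKM (fragments per kilobase of transcript, scaled for depth in a way the sources used here do not give) is the authors' value, 1 per gene and group. Values of single libraries were therefore not analysed here and no SD can be given. A log2 ratio is the authors' as well, and the error after ± is the standard error implied by the deposited test statistic. Genes are called where the q in the authors' deposited table, from Cuffdiff, is below 0.05. Counts of genes that rose or fell hold called genes only. The FPKM sum of all genes in FFa, KOa and KOb was 1239023, 1275908 and 659009, of which globin genes made up 64.6%, 76.3% and 53.3%. Dividing by these sums would move every gene by -0.04, 0.91 and 0.95 on the log2 scale for KOa and KOb over FFa and for KOb over KOa, and dividing by the sums without globin genes by 0.54, 0.51 and -0.03. The deposited scaling is the one used below, in which the median log2 ratio of all tested genes was -0.08, -0.01 and 0.05 in the same order. Ratios between 2 genes of a group do not depend on this choice.

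In the control cells the level of the 9 genes ranged from 30.3 to 2082 FPKM. Alas2 was highest, and 26 genes of the whole table lay above it in FFa. Fech (775.2 FPKM) and Slc25a37 (725.1 FPKM) followed, then Urod (336.7), Cpox (163.6), Alad (143.0), Ppox (62.9), Uros (50.0) and Slc25a38 (30.3 FPKM). FPKM is scaled by length, so levels of different genes can be set side by side, but the spread of a level over libraries is unknown and neighbours in this order cannot be told apart by a test. The order in KOa differed in the middle and at the low end, with Cpox above Urod and Uros above Ppox. In KOb Cpox was above Urod by 222.1 to 217.2 FPKM, and Ppox was again above Uros. The top 3 and the lowest gene held their rank in all 3 groups.

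**Figure D1:**
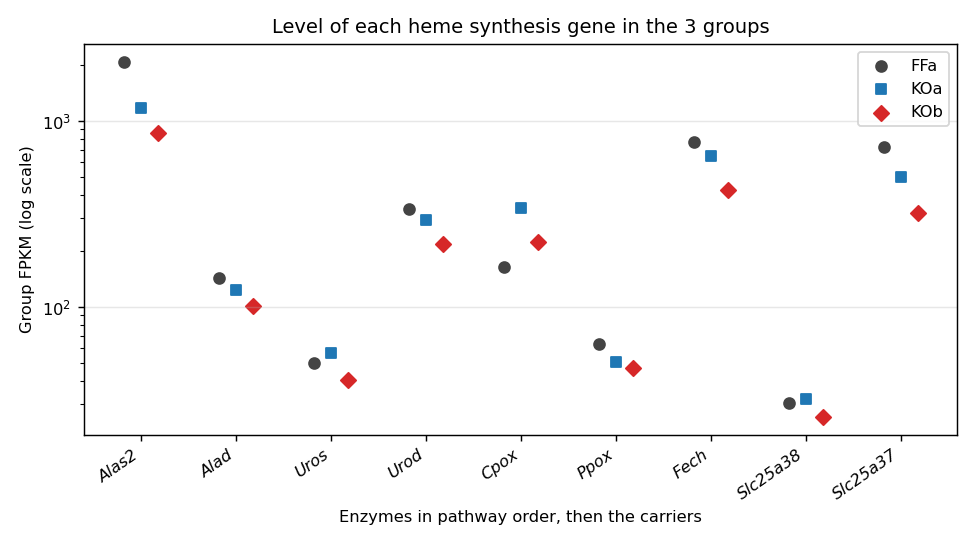
Group FPKM (log axis) of the 9 genes, enzymes in pathway order and then the carriers, in FFa (circles), KOa (squares) and KOb (diamonds). Alas2 was at 2082, 1167 and 861.3 FPKM, while Cpox was at 163.6, 340.8 and 222.1 FPKM; single libraries are not shown because the authors pooled them.

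The first comparison, KOa with FFa, keeps to a single sort gate. Cpox, which encodes coproporphyrinogen oxidase, rose 2.08-fold, and Alas2, which encodes the first and rate-limiting enzyme in red cells, fell to 56.1% of the control. The other 7 genes were not called. Of the 9 genes, 1 was thus higher against a background of 7.99% of all tested genes called higher, and 1 was lower against 14.1% called lower. Among tested genes with a mean FPKM of at least 20 over the groups, the range in which all 9 genes lie, 12.6% were called higher and 15.3% lower. The median log2 ratio of the 9 genes was -0.21, beside -0.08 for all tested genes and -0.01 for the abundant ones, and it was 0.32 after division by the FPKM sum without globin genes.

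Alas2 (chromosome X, 150547417 to 150570622) went from 2082 FPKM in FFa to 1167 FPKM in KOa. Its log2 ratio fell by 0.84 ± 0.40 (q = 0.00405 in the authors' deposited table). Apex2 lies over Alas2 on the opposite strand in the GENCODE annotation, and its FPKM of 5.38, 3.80 and 4.31 in FFa, KOa and KOb was small beside that of Alas2. When the deposited Cuffdiff statistic was taken as standard normal, a stricter reading, Alas2 was not called in KOa, with a Benjamini-Hochberg adjusted p value of 0.251 over all tested results.

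Cpox (chromosome 16, 58670208 to 58680389) went from 163.6 to 340.8 FPKM. Its log2 ratio rose by 1.06 ± 0.31 (deposited Cuffdiff q = 0.000619), and it was called under every other threshold, adjustment and rescaling run for this comparison, with adjusted p values of 2.22e-05 to 0.0166 over the scalings under the standard normal reading. Of 1549 abundant genes with a ratio, 48 had a higher one than Cpox in KOa. Cpox was the one gene of the 9 that was higher than the control in both mutants, although it was called in KOa alone at the deposited scaling. Under the standard normal reading Cpox was also called higher in KOb when divided by the FPKM sum with or without globin genes (adjusted p values of 0.000135 and 0.0220), settings under which 4987 and 1768 of all 10584 tested genes were called higher.

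None of the cytosolic enzymes was called in KOa. Alad, which joins 2 molecules of aminolevulinic acid, was at 143.0 FPKM in FFa and 123.2 in KOa (log2 ratio -0.21 ± 0.25). Urod, the decarboxylase that hands coproporphyrinogen to Cpox, was at 336.7 and 294.5 FPKM (-0.19 ± 0.25). Uros, which closes the ring, was at 50.0 and 56.7 FPKM (0.18 ± 0.27). Each of these 3 differences was smaller than its standard error.

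Of the last steps, Ppox, which oxidises the product of Cpox, was at 62.9 FPKM in FFa and 50.4 in KOa (log2 ratio -0.32 ± 0.26, deposited Cuffdiff q = 0.169). Fech was at 775.2 and 651.3 FPKM (-0.25 ± 0.35). Thus neither gene downstream of Cpox was called in the comparison in which Cpox rose. Among the carriers, Slc25a37 was at 725.1 and 499.1 FPKM (-0.54 ± 0.38) and missed the threshold with a deposited Cuffdiff q of 0.0767. The glycine carrier gene Slc25a38 was at 30.3 and 31.8 FPKM (0.07 ± 0.27).

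**Figure D2:**
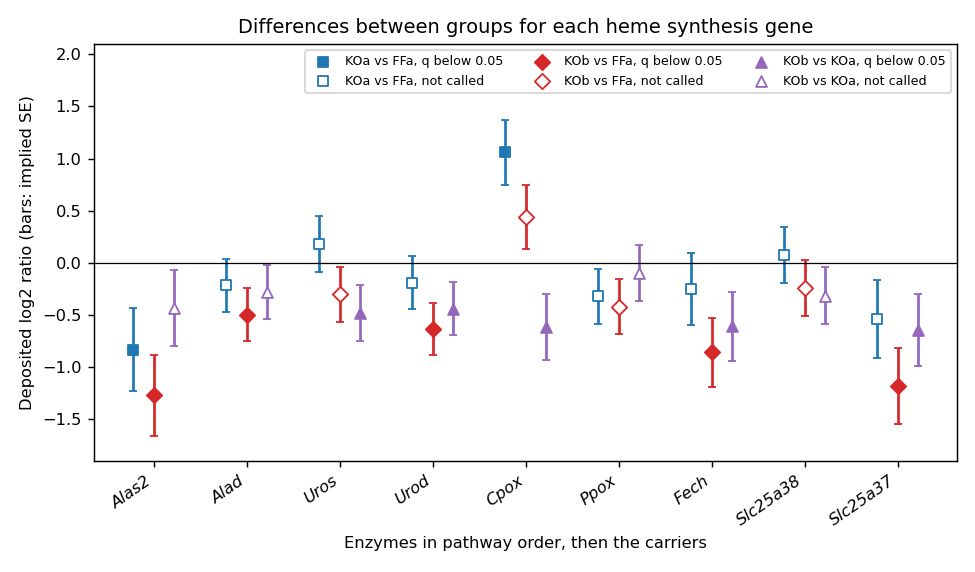
Deposited log2 ratio of each of the 9 genes in KOa against FFa (squares), KOb against FFa (diamonds) and KOb against KOa (triangles), with the implied standard error as bars; filled symbols are called at a q below 0.05. Cpox is the only gene above 0 by more than its error in KOa (1.06), all 9 lie below 0 in KOb against KOa, and division by the FPKM sum would put all 9 above 0 there.

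The second comparison, KOb with FFa, sets the severely deleted, TER119-negative cells beside the control. In KOb, Alas2, Slc25a37, Fech, Urod and Alad were called lower, at between 41.4% and 70.8% of FFa. None of the 9 genes was called higher, although the value of Cpox was above the control (log2 ratio 0.44 ± 0.31). The 5 of 9 called lower stand beside 15.2% of all tested genes and 24.6% of the abundant ones, and 0 called higher beside 12.8% and 11.7%. The median log2 ratio of the 9 genes was -0.50, beside -0.01 for all tested genes and -0.15 for the abundant ones. As shares of the FPKM sum the median would be 0.41, and without globin genes 0.01. Relative to the same shift of all genes the position of the 9 genes is the same under each scaling.

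Alas2 had the largest fall, from 2082 to 861.3 FPKM (log2 ratio fell by 1.27 ± 0.39, deposited Cuffdiff q = 0.000619). Slc25a37 (chromosome 14, 69241851 to 69285103) went from 725.1 to 319.3 FPKM and fell by 1.18 ± 0.37 (deposited Cuffdiff q = 0.000619). Both passed under the standard normal reading as well, with adjusted p values of 0.0207 and 0.0233 (Cuffdiff statistic, Benjamini-Hochberg). The entry enzyme and the iron carrier were therefore the 2 members that held under that reading at the deposited scaling. Of all 10584 tested genes, 627 were called lower under it. With division by the FPKM sum, with or without globin genes, both stayed below the control but were not called, with adjusted p values of 0.193 to 0.600 (Cuffdiff statistic, standard normal reading).

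Fech (chromosome 18, 64456550 to 64489066), whose product ferrochelatase makes heme, went from 775.2 to 426.9 FPKM and fell by 0.86 ± 0.34 (deposited Cuffdiff q = 0.00115). Urod (chromosome 4, 116990217 to 116994375) went from 336.7 to 217.2 FPKM and fell by 0.63 ± 0.25 (deposited Cuffdiff q = 0.00248). Alad (chromosome 4, 62509170 to 62520063) went from 143.0 to 101.3 FPKM and fell by 0.50 ± 0.25 (deposited Cuffdiff q = 0.0188). These 3 were not called under the standard normal reading, where their adjusted p values were 0.111 to 0.303 (Cuffdiff statistic).

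The remaining 4 genes were not called in KOb. Ppox (chromosome 1, 171276992 to 171281186) was at 62.9 and 47.0 FPKM (log2 ratio -0.42 ± 0.26, deposited Cuffdiff q = 0.0567), just outside the threshold. With the deposited Cuffdiff p adjusted within this comparison Ppox was called lower (adjusted p value of 0.0452). That made 6 of the 9 genes lower, beside 1713 of 10584 tested genes. Cpox was at 163.6 and 222.1 FPKM (0.44 ± 0.31, deposited Cuffdiff q = 0.0796). Uros (chromosome 7, 133686330 to 133709295) was at 50.0 and 40.5 FPKM (-0.30 ± 0.27), and Slc25a38 (chromosome 9, 120110399 to 120124319) at 30.3 and 25.6 FPKM (-0.24 ± 0.27).

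The third comparison sets KOb beside KOa, which differ in TER119 and, by the series description, in the degree of deletion, so these cannot be told apart. Trim28 itself was not called between them (log2 ratio -0.48 ± 0.32, deposited Cuffdiff q = 0.0535). Uros, Urod, Cpox, Fech and Slc25a37 fell from KOa to KOb, and none of the 9 genes rose. All 9 ratios were below 0, with a median of -0.44 beside 0.05 for all tested genes and -0.16 for the abundant ones, but as shares of the FPKM sum the median would be 0.51 and all 9 would lie above 0. The 5 of 9 called lower stand beside 6.19% of all tested genes and 19.4% of the abundant ones, and 0 called higher beside 10.05% and 8.96%. Under the standard normal reading 0 of the 9 genes passed (adjusted p values of 0.312 to 0.936, Cuffdiff statistic), and with a q threshold of 0.01 also 0. Few genes were called lower at all there, 83 and 326 of 10468 tested genes in the same order. As deposited, 6 of the 9 had an unadjusted p below 0.05.

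Slc25a37 fell by 0.64 ± 0.34, from 499.1 to 319.3 FPKM (deposited Cuffdiff q = 0.0124). Cpox fell by 0.62 ± 0.32, from 340.8 to 222.1 FPKM (deposited Cuffdiff q = 0.0108). At the deposited scaling it thus stood nearer to the control in KOb than in KOa. Fech fell by 0.61 ± 0.33 (deposited Cuffdiff q = 0.0186). Uros fell by 0.49 ± 0.27, from 56.7 to 40.5 FPKM (deposited Cuffdiff q = 0.0222), and Urod fell by 0.44 ± 0.26 (deposited Cuffdiff q = 0.0467), just inside the threshold. With the deposited Cuffdiff p adjusted within this comparison Urod was not called (adjusted p value of 0.0639). That left 4 of the 9 genes lower, beside 563 of 10468 tested genes. Uros was called in this comparison although neither mutant differed from the control by the test. Alas2, at 1167 and 861.3 FPKM, was not called (-0.44 ± 0.36, deposited Cuffdiff q = 0.128), so that its difference between the mutants did not pass. The 3 comparisons share groups: a high KOa value raises the first ratio and lowers the third, as the values of Cpox and Uros show.

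**Figure D3:**
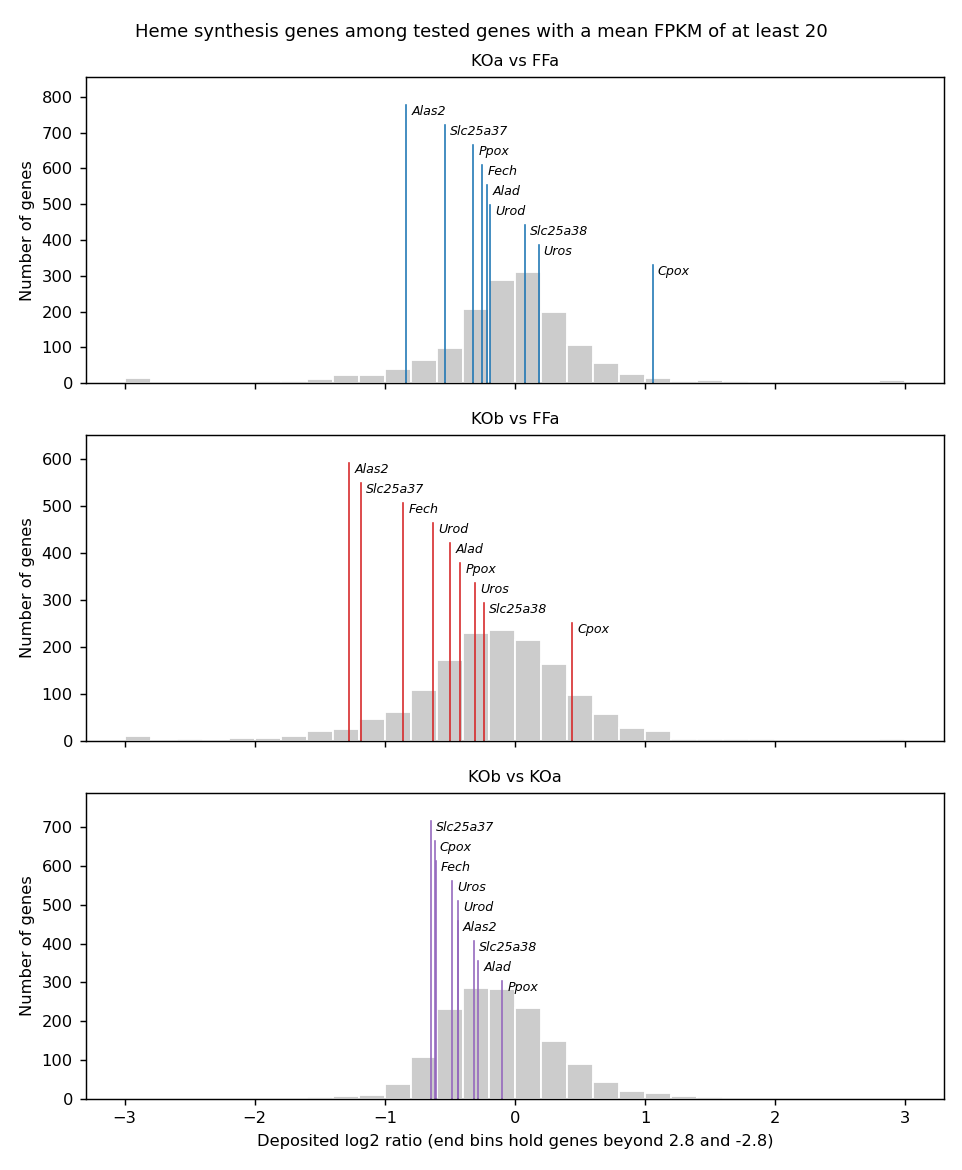
Number of tested genes with a mean FPKM of at least 20 (grey bars) by deposited log2 ratio in each comparison, with a coloured line at each of the 9 heme synthesis genes. In KOa 48 abundant genes lie above Cpox and 129 below Alas2; in KOb 84 lie below Alas2 and 95 below Slc25a37. Dividing by the FPKM sum would shift lines and bars together.

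Ratios within the pathway are altered by no scaling. The ratio of Alas2 to Cpox is given as a description, since these were picked as the lowest and the highest of the 9 genes, and its errors take no account of that choice. The FPKM of Alas2 was 12.7 times that of Cpox in FFa, 3.42 times in KOa and 3.88 times in KOb. On the log2 scale the Alas2 to Cpox ratio changed by -1.89 ± 0.51 in KOa and by -1.71 ± 0.49 in KOb, with the errors of the 2 genes taken as independent. Urod, which acts just before Cpox, had more FPKM than Cpox in the control, and the Cpox to Urod ratio went from 0.486 to 1.16 and 1.02. Ppox acts just after it, and the Cpox to Ppox ratio was 2.60, 6.77 and 4.73 in FFa, KOa and KOb. No test was run on these ratios.

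Against Fech and Slc25a37, Alas2 changed less than against Cpox. In KOa the log2 ratios of the enzymes other than Cpox ran from -0.84 for Alas2 to 0.18 for Uros. The Alas2 to Fech ratio, first enzyme over last, was 2.69, 1.79 and 2.02 in FFa, KOa and KOb, and its log2 changes of -0.58 ± 0.53 and -0.41 ± 0.51 were close to their errors. The Alas2 to Slc25a37 ratio was 2.87, 2.34 and 2.70, with changes of -0.30 ± 0.55 and -0.09 ± 0.53, within their errors. Against the other carrier gene, Slc25a38, the ratio was 68.8, 36.6 and 33.7, with larger changes of -0.91 ± 0.48 and -1.03 ± 0.47. Between the carriers, the Slc25a37 to Slc25a38 ratio was 24.0, 15.7 and 12.5. Iron carrier transcripts were thus lower relative to glycine carrier transcripts in both mutants, by -0.61 ± 0.46 and -0.94 ± 0.45 on the log2 scale.

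As shares of the summed FPKM of the 9 genes, Alas2 made up 47.7% in FFa, 36.3% in KOa and 38.1% in KOb. Cpox made up 3.74%, 10.6% and 9.82%. Fech held 17.7%, 20.3% and 18.9%, and Slc25a37 16.6%, 15.5% and 14.1%. The levels lay closer together in the mutants: the highest was 68.8 times the lowest in FFa, 36.6 times in KOa and 33.7 times in KOb.

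**Figure D4:**
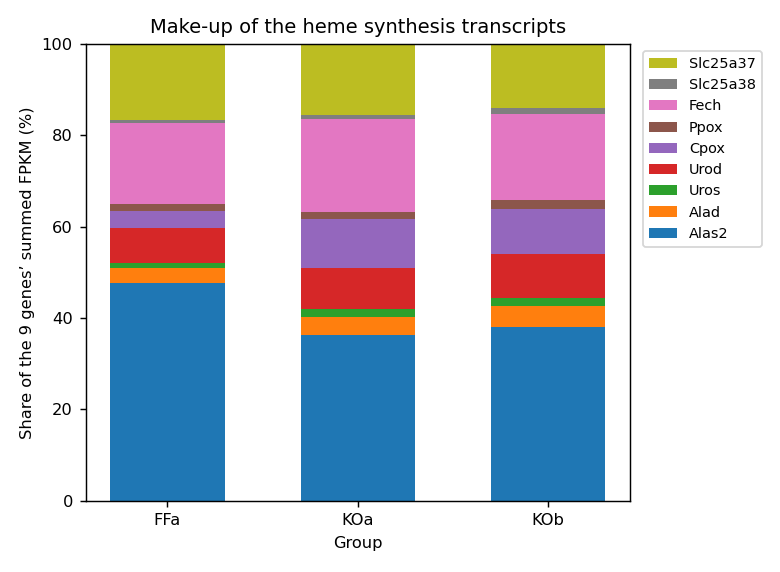
Share (%) of each gene in the summed FPKM of the 9 genes in the 3 groups, stacked from Alas2 at the bottom to Slc25a37 at the top. The Alas2 share was 47.7%, 36.3% and 38.1% and the Cpox share 3.74%, 10.6% and 9.82%; shares do not depend on the scaling of a group.

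Erythroid identity genes give the stage beside which these values stand. Of 12 such genes, 0 were called in KOa, with a median log2 ratio of 0.03 beside -0.21 for the heme genes. In KOb against FFa 6 fell and 0 rose, with a median of -0.46 beside -0.50 for the heme genes. From KOa to KOb 6 fell as well (median -0.43). Slc4a1, the band 3 gene, was at 867.5, 713.6 and 470.3 FPKM and fell by 0.88 ± 0.39 in KOb. The blood group gene Kel fell by 0.62 ± 0.27 and the ankyrin gene Ank1 by 0.52 ± 0.32 in KOb. Kit, a progenitor marker, was at 0.399, 0.751 and 2.36 FPKM and rose in both mutants, from a low level. Of the same list, Myb was at 7.48, 3.61 and 8.57 FPKM and Cd48 at 7.23, 4.62 and 12.2 FPKM. Both fell in KOa, while in KOb Cd48 rose and Myb was not called. Of the 8 progenitor markers, 1 rose and 2 fell among 6 tested in KOa, and 4 rose and 0 fell among 7 tested in KOb. As all samples are bulk, fewer cells of a stage and less RNA per cell cannot be told apart, and the part of stage or gate in the heme values was not tested.

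Markers of other blood cells were present in the sorted cells and differed between groups. The summed FPKM of 13 B cell markers in FFa, KOa and KOb was 249.4, 27.8 and 25.4, and 11 and 12 of them fell in the mutants. Granulocyte markers (15 genes) summed to 48898, 16619 and 13469 FPKM, with 6 lower and 2 higher in KOa and 8 lower and 2 higher in KOb, and S100a8 made up most of these sums. Macrophage markers (13 genes) summed to 375.5, 110.5 and 98.8 FPKM, with 7 and 12 of 12 tested lower. Of 12 megakaryocyte markers, which summed to 39.6, 71.4 and 59.3 FPKM, 8 were tested, and 4 rose and 1 fell in KOa while 4 rose and 2 fell in KOb. No marker of these 4 lists was at 0 in any group, but some lay below 1 FPKM. At 1 FPKM or more in FFa, KOa and KOb were 13, 7 and 8 B cell markers and 5, 5 and 6 megakaryocyte markers. Of the macrophage markers 10, 7 and 7 reached it, and of the granulocyte markers all 15 in each group. The part of such cells in the heme values was not tested.

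Of the substrate and partner genes of the pathway, 4 of 19 tested in KOa rose and 5 fell (median log2 ratio -0.04), and in KOb 6 of 20 rose and 3 fell (median 0.40). Clpx, whose product helps activate ALAS in mitochondria, rose by 1.59 ± 0.35 in KOa and by 2.03 ± 0.34 in KOb, from 3.57 to 10.8 and 14.6 FPKM. Shmt2, which makes glycine from serine in mitochondria, rose by 0.86 ± 0.30 and 1.16 ± 0.30, from 17.2 to 31.3 and 38.4 FPKM. Suclg1, a subunit of succinyl-CoA ligase, fell by 0.65 ± 0.37 in KOa, rose by 0.60 ± 0.33 in KOb and was at 5.39, 3.44 and 8.16 FPKM. Suclg2, another subunit, was at 0.720, 0.701 and 1.70 FPKM and rose in KOb alone (1.23 ± 0.55 on the log2 scale). Alas1, the housekeeping form of the first enzyme, stayed low at 2.55, 3.23 and 3.39 FPKM and was not called. Of 2 further partners, named after their values were seen, Tmem14c, needed for porphyrin entry into mitochondria, fell in KOa, was not called in KOb and was at 399.6, 244.2 and 390.3 FPKM (log2 ratios of -0.71 ± 0.24 and -0.03 ± 0.24). Slc25a39, the mitochondrial glutathione carrier gene, fell in both mutants, from 453.5 to 283.8 and 284.8 FPKM.

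Genes of iron-sulfur cluster assembly, which Fech needs for its own cluster, were split. In KOa 1 of 14 rose and 1 fell, and in KOb 3 rose and 5 fell (medians -0.18 and 0.04). Iscu, the scaffold gene, was at 285.0, 232.0 and 105.8 FPKM and fell by 1.43 ± 0.23 in KOb. Its co-chaperone gene Hscb fell by 1.12 ± 0.25 there, from 39.8 to 18.3 FPKM, whereas Hspa9, the gene of the chaperone it works with, rose by 1.28 ± 0.30, from 6.78 to 16.4 FPKM. Isca1 fell by 0.62 ± 0.27 in KOa and by 1.03 ± 0.27 in KOb.

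Iron uptake and storage genes were mostly not called, with 2 of 11 higher in KOa and 2 higher and 2 lower in KOb (medians -0.08 and -0.03). Fam132b, the erythroferrone gene, rose by 2.76 ± 0.37 and 2.74 ± 0.37, from 1.42 to 9.63 and 9.52 FPKM. Tfr2 rose by 0.71 ± 0.30 and 0.84 ± 0.29. Ncoa4, which delivers ferritin to lysosomes, fell by 0.83 ± 0.30 in KOb, and Slc11a2, which moves iron out of endosomes, fell by 0.46 ± 0.30.

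Of 9 measured genes of heme export, breakdown and sensing, 3 rose in KOa and 4 fell in KOb (medians -0.04 and -0.32). Hebp1, a heme binding protein gene, fell by 0.93 ± 0.24 in KOb, from 160.6 to 84.2 FPKM. Hmox1, which encodes the inducible heme oxygenase, fell by 0.86 ± 0.28 and Slc48a1, a heme transporter gene, by 0.65 ± 0.28 on the log2 scale. Bach1, whose product is a repressor that binds heme, rose by 0.86 ± 0.33 in KOa, from 2.02 to 3.66 FPKM.

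Of 12 transcription factor genes tied to heme gene control, 3 rose and 0 fell in KOa, and 2 rose and 1 fell in KOb (medians 0.18 and -0.18). Gata1 was at 117.9, 138.3 and 104.8 FPKM and was not called in any comparison. Zfpm1, whose product FOG1 binds GATA1, rose by 0.48 ± 0.29 in KOa and fell by 0.78 ± 0.29 from KOa to KOb. Against the control it was not called in KOb (log2 ratio -0.30 ± 0.28). Sp1 and Nfe2l1, named after their values were seen, were likewise called higher in KOa and lower from KOa to KOb. Foxo3 fell by 0.82 ± 0.28 and Bcl11a rose by 1.18 ± 0.42 in KOb. Hif1a rose by 0.88 ± 0.37 from KOa to KOb, at 1.35 and 2.49 FPKM.

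Of 14 genes of the tricarboxylic acid cycle, which supplies succinyl-CoA, 2 rose and 0 fell in each comparison with the control (medians 0.08 and 0.30). Idh3a, an isocitrate dehydrogenase subunit gene, rose by 0.72 ± 0.30 and 1.41 ± 0.29, from 8.05 to 13.2 and 21.4 FPKM, and Sdhc rose by 0.79 ± 0.29 and 0.55 ± 0.30. From KOa to KOb Sdhd rose by 0.67 ± 0.29 and Ogdh fell by 0.47 ± 0.30. Of 8 tested globin genes listed singly, none was called higher against the control, 1 was called lower in KOa and 2 in KOb: Hbq1a by 2.17 ± 0.29 and Hbq1b by 0.84 ± 0.22. In KOa 4 of the 8 log2 ratios were above 0 and 4 below. The most abundant globins had wide errors, with log2 ratios in KOa of 2.65 ± 2.58 for Hbb-b2, 0.34 ± 1.98 for Beta-s and -0.04 ± 1.31 for Hba-a2. The lack of a call therefore decides little for them. Of 31 tested carrier genes of the SLC25 family outside the 9 genes, 1 rose and 6 fell in KOa, and 4 rose and 5 fell in KOb. Among those of at least 5 FPKM, the citrate carrier gene Slc25a1 rose most in KOb (1.48 on the log2 scale, from 5.31 to 14.8 FPKM) and Slc25a24 fell most (-1.19). The ADP/ATP carrier gene Slc25a5 rose by 0.67 ± 0.25 in KOb, and Slc25a44 fell by 0.69 ± 0.31 and 0.86 ± 0.32 in KOa and KOb. The median log2 ratio of these carriers was -0.06 and 0.05.

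**Figure D5:**
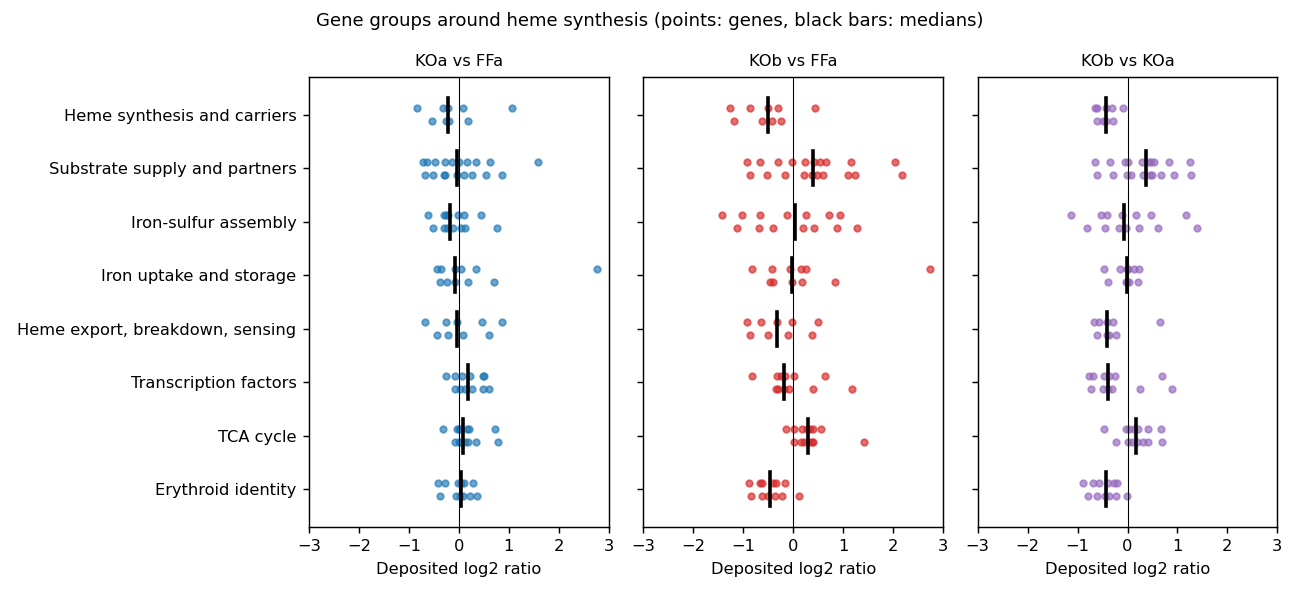
Deposited log2 ratios of the tested genes (points) of 8 gene groups in the 3 comparisons, with black bars at the medians. In KOb against FFa the median was -0.50 for the 9 heme genes and -0.46 for erythroid identity genes, but 0.40 for substrate supply and partners and 0.30 for the TCA cycle; division by the FPKM sum would move all points of that panel by 0.91.

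The genes most like Alas2 were sought among 1260 others with at least 20 FPKM in every group (joined entries, small RNAs and predicted Gm genes left out), by the distance between their log2 ratios to FFa in both mutants. The nearest 5 were Hist1h2bn (distance 0.05), Fcer1g (0.05), 2810453I06Rik (0.10), Hist3h2a (0.13) and Hist1h3a (0.14). Histone genes share reads with near-identical copies, so their values are uncertain. Slc25a37 was the 25th nearest to Alas2 and Fech the 114th, the closest of the heme genes. For Cpox the nearest were Rnf114 (0.13), the interferon-induced gene Isg15 (0.14), Mad2l1bp (0.15), the mitophagy receptor gene Optn (0.16) and Glo1 (0.20), and the nearest other heme gene, Uros, was the 503rd. Each distance rests on 3 group values and shares the control group.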

How the data were processed

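The authors deposited 1 gene table with a row for each gene in each of 3 comparisons. FPKM values are the authors', 1 per gene and group of 3 libraries. The log2 ratio, the test statistic (a score), the p-value and the q-value are the authors' too. The tools named in the submitters' processing notes are Cuffdiff 2.1.1, TopHat2 2.0.8b and Bowtie2 2.1.0, and the build is mm10. Annotation, filters, scaling and strand use were not given in the sources used here. Each q was recomputed as the Benjamini-Hochberg adjustment of 31813 tested results (largest difference 5.27e-07). The deposited p was below the normal p of the same statistic in 96.0% of tested results and in all 27 results of the 9 genes, and the smallest p, 5e-05, is a floor. Depth is unknown, so no counting interval is given.

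Standard errors, shares, ratios and alternatives were computed with Python 3.11.15, pandas 2.3.3, numpy 2.4.6 and scipy 1.17.1, and the adjustment was tested on simulated data. The members, lists and tests were chosen with earlier results of these data known. Beside the 9 genes and Trim28, up to 4 called genes of largest change with at least 1 FPKM were to be named per list, plus Alas1. Some results are not reported here. Other genes named with their marker lists were chosen after their values were seen. Alternatives were other q thresholds and adjustments, a standard normal reading of the statistic, added FPKM and 3 rescalings.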

Additional observations from a re-analysis of the deposited data

How the results depend on the processing

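No paired analysis was possible because the deposited values are 1 per group, and for the same reason no replicate could be left out. With 1 FPKM added, all 27 log2 ratios of the 9 genes moved by less than their standard error. Under the standard normal reading, 0 of the 9 genes were lower in KOa than FFa, 2 in KOb than FFa and 0 in KOb than KOa. Of all tested genes, 534 of 10761, 627 of 10584 and 83 of 10468 were called lower under that reading. The same counts of the 9 genes held with median centring, beside 474, 641 and 107 of all tested genes. With a q below 0.01, 0 of the 9 were lower in KOb against KOa, beside 326 of 10468 tested genes. On shares of the FPKM sum with the normal reading, 0 of the 9 were lower in each comparison, beside 925, 211 and 14 of all tested genes. On these shares 2 of the 9 were higher in KOb than FFa and 3 in KOb than KOa, beside 4987 of 10584 and 5630 of 10468 tested genes called higher. Without globin genes in the sum, 0 of the 9 were lower in each comparison, beside 220, 300 and 134 of all tested genes. In KOb against FFa 1 of the 9 was higher there, beside 1768 of 10584. As shares of the sum, the median log2 ratio reversed to 0.41 for KOb over FFa and 0.51 for KOb over KOa, and without globin genes to 0.32 in KOa and 0.012 in KOb against FFa. Called falls that reversed as shares of the sum were, in KOb against FFa, Alad (0.41), Urod (0.28) and Fech (0.050), and in KOb against KOa, Uros (0.47), Urod (0.51), Cpox (0.34), Fech (0.34) and Slc25a37 (0.31). Without globin genes Alad reversed to 0.012 in KOb against FFa. These reversals follow from adding 1 value to every gene.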
